A study of Mus musculus with 9 samples.

Results

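Fibrillar collagens are the collagens that build the banded fibrils of connective tissue and scar, and 10 mouse genes that code for their chains were followed in liver stellate cells and fibroblasts: Col1a1, Col1a2, Col2a1, Col3a1, Col5a1, Col5a2, Col5a3, Col11a1, Col24a1 and Col27a1. The genes were chosen by name as the fibrillar collagen chains, by a rule that uses no measured value although results of these data were known, and they are 10 of the 24453 genes quantified. The related chain gene Col11a2 was not among the chosen genes, and is given only as a count of reads.

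RNA sequencing was carried out on 3 groups of cells from mice of the C57BL/6J strain, with 3 libraries in each group and RNA pooled from several mice for each library. Quiescent hepatic stellate cells (HSC) were separated by density gradient from healthy wild-type livers that received no treatment, and were not sorted for a reporter. Activated fibroblasts of the CCl4 model (CCl4-fib) came from mice carrying green fluorescent protein under the promoter of the collagen α2(I) gene (Col1a2-GFP Tg), which were given carbon tetrachloride, a liver toxin, 2 times per week for 8 weeks. Activated fibroblasts of the NASH model (NASH-fib) came from the same reporter line crossed with mice lacking the melanocortin 4 receptor (MC4R-KO), males that were fed Western diet for 20 weeks from the age of 8 weeks and served as a model of non-alcoholic steatohepatitis. Cells of both fibroblast groups were sorted by flow cytometry as CD45- GFP+, so that every fibroblast library was selected for activity of a type I collagen promoter while no HSC library was. The isolation method, the reporter genotype and the fibrosis cannot be told apart in a comparison with HSCs, and the toxin, the diet, the MC4R genotype and the length of treatment cannot be told apart between CCl4-fib and NASH-fib.

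A fibrillar collagen is a rope of 3 chains wound around each other, which is secreted as a procollagen, trimmed at its ends and assembled side by side into fibrils. Types I and III are the bulk collagens of liver scar, type II is the collagen of cartilage, and types V and XI are minor collagens buried within fibrils, where they are known to set fibril assembly and width. Types XXIV and XXVII form a separate small branch of the family, best known from skeletal tissue. In the diseased liver, activated stellate cells and portal fibroblasts are known as the main producers of these chains.

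Promoter sequences were taken from RefSeq (build GRCm38.p6), which had an entry for 7 of the 10 genes and none here for Col1a1, Col2a1 and Col5a2. The 250 bases before the start site, 5′ to 3′ on the strand of the gene, are shown for Col1a2, whose promoter type drove the reporter used for the sort, and for Col5a1, Col24a1 and Col11a1, which differed in how they changed against HSCs. Capitals mark matches on either strand to CCAAT (the CCAAT box), to GGGCGG (the GC box), to TATAAA (the TATA box) and to TGACGT (the core of the cyclic AMP response element), the last of which was added after the sequences had been read.
Col1a2: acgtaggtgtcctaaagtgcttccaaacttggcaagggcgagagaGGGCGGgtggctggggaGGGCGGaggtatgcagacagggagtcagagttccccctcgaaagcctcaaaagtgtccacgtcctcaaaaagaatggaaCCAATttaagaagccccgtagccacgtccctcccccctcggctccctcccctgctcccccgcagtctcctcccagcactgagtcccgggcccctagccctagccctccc
Col5a1: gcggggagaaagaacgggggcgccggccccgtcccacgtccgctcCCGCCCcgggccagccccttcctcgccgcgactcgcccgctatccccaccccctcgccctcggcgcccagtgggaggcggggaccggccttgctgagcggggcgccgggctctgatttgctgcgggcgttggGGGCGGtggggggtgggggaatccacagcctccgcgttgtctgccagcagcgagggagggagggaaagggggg
Col24a1: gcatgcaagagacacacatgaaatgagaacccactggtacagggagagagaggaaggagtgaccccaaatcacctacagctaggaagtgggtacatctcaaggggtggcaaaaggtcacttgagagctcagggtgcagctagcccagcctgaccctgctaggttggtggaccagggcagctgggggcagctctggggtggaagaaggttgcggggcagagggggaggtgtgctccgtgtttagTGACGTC
Col11a1: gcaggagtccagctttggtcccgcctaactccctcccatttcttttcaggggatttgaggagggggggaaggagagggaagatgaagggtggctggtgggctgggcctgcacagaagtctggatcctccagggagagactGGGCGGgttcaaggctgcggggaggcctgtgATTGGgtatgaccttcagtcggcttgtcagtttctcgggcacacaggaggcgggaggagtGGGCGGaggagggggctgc
These windows lie at chr6:4505368-4505617 (Col1a2), chr2:27886175-27886424 (Col5a1), chr3:145292222-145292471 (Col24a1) and chr3:114030290-114030539 (Col11a1), all on the plus strand. The transcript used for the Col1a2 values begins 79 bases downstream of the start site in the RefSeq table. Over the window of 300 bases that also holds the first 50 bases of the transcript, CCAAT was found in 3 of the 7 genes (Col1a2, Col5a3, Col11a1) and in 37.4% of all 32851 promoters in the table. GGGCGG was found in 5 of the 7 genes (Col1a2, Col5a1, Col5a3, Col11a1, Col27a1) and in 35.7% of all promoters. TATAAA was present in Col3a1 alone of the 7, 117 bases before its start, against 13.6% of all promoters. Col24a1 was the 1 gene of the 7 with TGACGT, 7 bases before its start, where matches on both strands overlapped each other, against 7.51% of all promoters. The matches are letters in a window and were not tested as binding sites.

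The libraries held 3071070 to 3825522 reads on genes in HSC, 4687349 to 5634273 in CCl4-fib and 3289758 to 5021156 in NASH-fib. Values below are the deposited ones, which are read counts scaled to a common total, and 3 reads correspond to a value of 2.38 to 4.37 depending on the library. Levels of different genes are compared only as RPKM, the reads per kilobase of transcript scaled to the reads on genes of the library. The labels were checked against defining genes: Lrat, the retinoid-esterifying enzyme of quiescent stellate cells, was at 7070 to 14894 in HSC and at most 458 in the fibroblast groups, and Acta2, smooth muscle actin, was at most 93.5 in HSC and at least 5300 in the fibroblast groups. Albumin mRNA from hepatocytes was present in all libraries, at 9062 to 14161 in HSC, 617 to 829 in CCl4-fib and 1787 to 14897 in NASH-fib. Across all genes, NASH-fib replicate 1 was nearer to HSC replicate 2 (chi-square per gene of 64.9) than to the other two NASH-fib libraries (99.6 and 81.8), and the labels of this pair begin with the same number, which reads like a date. The count of fibrillar collagens called in each comparison was the same without this pair of libraries, and the genes were the same ones.

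In HSCs, type III collagen mRNA was the most abundant fibrillar collagen, followed by the type I chains, and the whole family took a small part of the library. The family accounted for 0.121% ± 0.0388 (SD, n = 3) of the reads on genes in HSC, 0.974% ± 0.0988 in CCl4-fib and 0.359% ± 0.0969 in NASH-fib. The 3 groups did not overlap in this share, which ran from 0.0895% to 0.165% in HSC, from 0.874% to 1.07% in CCl4-fib and from 0.270% to 0.462% in NASH-fib. In such bulk samples, a change in the number of cells that express a gene and a change in the RNA per cell cannot be told apart.

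By RPKM, the order in HSC was Col3a1 at 98.3, Col1a2 at 62.8, Col1a1 at 25.6, Col5a1 at 9.69, Col5a2 at 7.26, Col27a1 at 5.59, Col24a1 at 3.41, Col5a3 at 1.12 and Col11a1 at 0.015, as means of 3 libraries. Across libraries the ranges of Col3a1 and Col1a2 overlapped, although Col3a1 was above Col1a2 within each of the 3 libraries, and the neighbours from Col5a1 to Col24a1 overlapped. In CCl4-fib the order was Col1a2 at 614 RPKM, Col3a1 at 575, Col1a1 at 391, Col5a2 at 116, Col5a1 at 21.9, Col24a1 at 15.1, Col5a3 at 8.76, Col27a1 at 4.41 and Col11a1 at 0.972. Col1a2 and Col3a1 were not separated there, nor were the neighbours from Col5a1 to Col27a1. In NASH-fib, Col1a2 was at 242 RPKM, Col3a1 at 197, Col1a1 at 164, Col5a2 at 33.0, Col27a1 at 5.33, Col5a1 at 3.87, Col11a1 at 0.989, Col5a3 at 0.954, Col24a1 at 0.127 and Col2a1 at 0.072. The 3 bulk chains overlapped with their neighbours in NASH-fib, Col5a2 stood apart from those above and below it, and the pairs Col27a1 and Col5a1, Col11a1 and Col5a3, and Col24a1 and Col2a1 overlapped. Col24a1 thus ranked above Col5a3 and Col27a1 in CCl4-fib and next to last in NASH-fib.

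**Figure D1:**
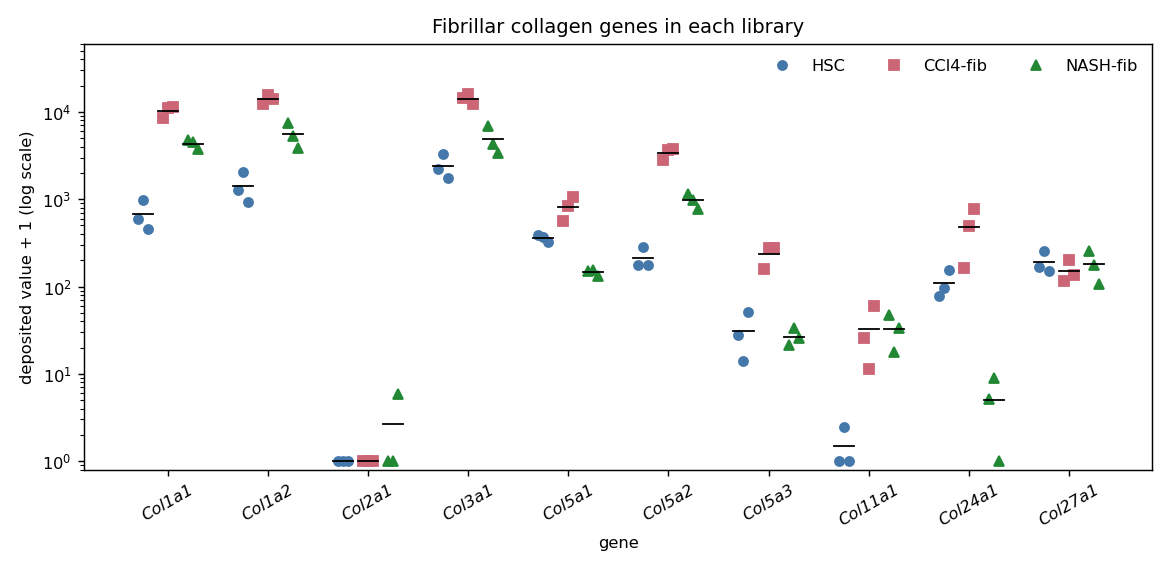
Deposited value plus 1 (log scale) of the 10 fibrillar collagen genes, 1 point per library, with HSC as circles, CCl4-fib as squares, NASH-fib as triangles and a black line at each group mean. The CCl4-fib libraries lie above all others for Col1a1, Col1a2, Col3a1, Col5a1, Col5a2, Col5a3 and Col24a1, while Col27a1 overlaps in all 3 groups and Col2a1 was at 0 in 8 libraries.

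The make-up of the family differed between HSCs and fibroblasts. As a share of the summed reads per kilobase of the 10 genes, Col3a1 made up 46.0% ± 0.063 (SD, n = 3) in HSC, 33.0% ± 4.24 in CCl4-fib and 29.9% ± 2.94 in NASH-fib. Col1a1 made up 11.8% ± 0.771 in HSC, 22.4% ± 2.30 in CCl4-fib and 26.1% ± 4.13 in NASH-fib, and Col1a2 28.9% ± 2.41, 35.1% ± 0.369 and 37.0% ± 1.98. The share of Col3a1 was lower, and those of Col1a1 and Col1a2 higher, in every fibroblast library than in every HSC library. The minor chain Col5a1 made up 4.81% in HSC, 1.25% in CCl4-fib and 0.622% in NASH-fib, while its partner Col5a2 made up 3.44%, 6.62% and 5.16%. These shares sum to a fixed total, so that a rise of one chain lowers the others.

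**Figure D2:**
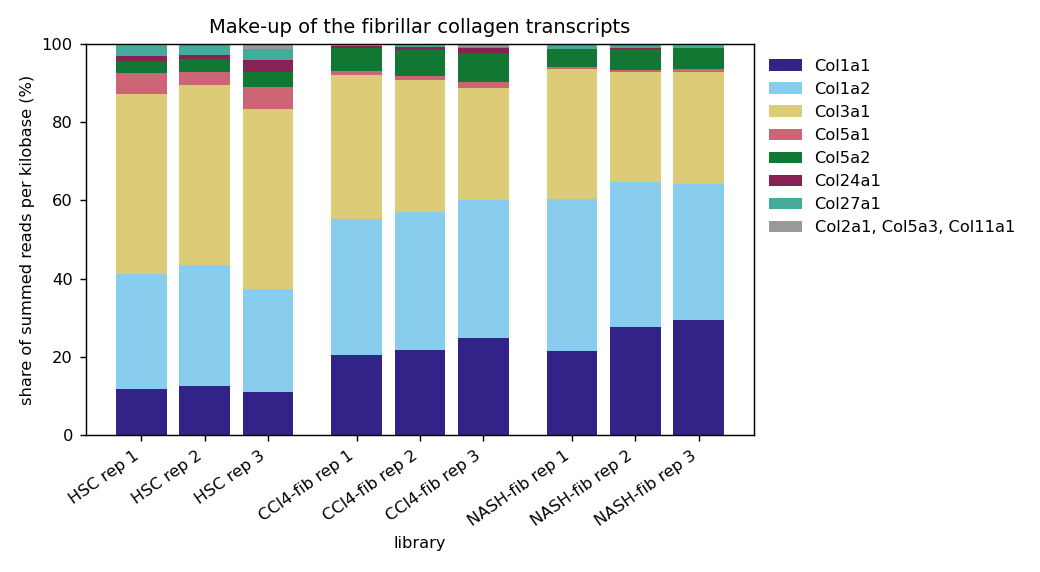
Share of each fibrillar collagen gene in the summed reads per kilobase of the family (%), 1 stacked bar per library. Col3a1 is the largest segment in the 3 HSC libraries, with a mean of 46.0%, and the Col1a1 segment grows from a mean of 11.8% in HSC to 22.4% in CCl4-fib and 26.1% in NASH-fib.

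Between CCl4-fib and HSC, 7 of the 9 fibrillar collagen genes that could be tested rose and none fell. The genes that rose were both type I chains, the type III chain, the 3 type V chains and Col11a1, by 1.13 to 4.26 on the log2 scale. A gene was called when its fold change was at least 1 on the log2 scale with an adjusted p under 0.05 (limma on log2 of the value plus 1, all 13651 genes that passed a filter on low counts, Benjamini-Hochberg). Under this rule 27.8% of all tested genes were called, 16.2% as higher and 11.7% as lower. Every CCl4-fib library was above every HSC library for 8 of the 9 genes, Col24a1 in addition to those called, against 27.8% of all genes above, 20.9% below and 48.6% in either direction. The median log2 fold change of the 9 genes was 3.07, against 0.18 over all tested genes. Col2a1 did not pass the filter.

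The genes of type I collagen, the main collagen of scar, were among the 3 most abundant of the family in each group. Col1a1 (NM_007742, chr11:94936224-94953042 in mm10) codes for the α1 chain and was at 600, 968 and 452 in HSC, at 8485, 11002 and 11375 in CCl4-fib and at 4729, 4498 and 3738 in NASH-fib. Col1a2 (NM_007743, chr6:4505697-4541543) codes for the α2 chain and was at 1291, 2065 and 930 in HSC, at 12466, 15534 and 13945 in CCl4-fib and at 7426, 5263 and 3860 in NASH-fib. For both genes no 2 groups overlapped, with HSC lowest and CCl4-fib highest. The rise in CCl4-fib over HSC was 3.99 for Col1a1 (SE 0.35; adjusted p = 4.03e-05, limma) and 3.36 for Col1a2 (SE 0.38; adjusted p = 0.000163, limma) on the log2 scale. The sort selected fibroblasts with an active Col1a2 promoter, and its part in these differences cannot be told apart from that of the disease model.

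Col3a1 (NM_009930, chr1:45311538-45349706), the chain of type III collagen, stood at 2192, 3311 and 1766 in HSC, at 14332, 15970 and 12180 in CCl4-fib and at 6882, 4280 and 3404 in NASH-fib. The CCl4-fib libraries were apart from the rest, while the lowest NASH-fib library was close to the highest HSC library. Its rise in CCl4-fib was 2.59 (SE 0.37; adjusted p = 0.000676, limma), smaller than those of the type I chains. The counting kept at most 3 reads per position, taken here as a position on each strand, so that a base can hold more than 3 reads. Col1a2, Col3a1 and Col1a1 reached up to 3.59, 3.41 and 2.20 reads per base in CCl4-fib, so that their highest values may be understated. A correction for this limit, which takes reads as evenly spread, gave 4.03 for Col1a1, 3.49 for Col1a2 and 2.70 for Col3a1 in CCl4-fib against HSC.

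The type V chains, which are built into type I fibrils, rose by very different amounts. Col5a2 (NM_007737, chr1:45374331-45503282) had values of 178, 285 and 176 in HSC, 2798, 3632 and 3761 in CCl4-fib, then 1153, 981 and 772 in NASH-fib, and it rose by 4.02 in CCl4-fib (SE 0.33; adjusted p = 3.3e-05, limma). Col5a1 (NM_015734, chr2:27886425-28039510) had values of 392, 366 and 326 in HSC, 564, 839 and 1051 in CCl4-fib, then 148, 152 and 133 in NASH-fib. Its rise in CCl4-fib was 1.13 (SE 0.33; adjusted p = 0.0276, limma), and the 3 groups were fully apart, with NASH-fib the lowest. This call was lost in 7 of 21 alternative settings, with log2 values of 0.93 to 1.38 over all of them, and adjusted p = 0.122 (limma) with the number that begins each label as a block. Col5a3 (NM_016919, chr9:20770050-20815034) had values of 26.9, 13.1 and 50.2 in HSC, 156, 277 and 274 in CCl4-fib, then 20.4, 32.1 and 24.6 in NASH-fib. It rose by 3.07 in CCl4-fib (SE 0.54; adjusted p = 0.00199, limma), and the HSC and NASH-fib libraries overlapped. The exons of Col5a1 share 212 bases with antisense genes and those of Col3a1 share 141 bases with another gene model, and the counting did not use strand.

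Col11a1 (NM_007729, chr3:114030540-114220326), the α1 chain of type XI collagen, had at most 1 read in any HSC library. There were 0, 1 and 0 reads in HSC, 31, 12 and 62 reads in CCl4-fib and 34, 19 and 33 reads in NASH-fib. The values were 0, 1.46 and 0 in HSC, 24.6, 10.2 and 59.2 in CCl4-fib, then 46.2, 16.9 and 32.4 in NASH-fib, so that every fibroblast library was above every HSC library. The log2 change in CCl4-fib was 4.26 (SE 0.77; adjusted p = 0.0024, limma), which depends on the pseudocount. As a ratio of scaled reads, CCl4-fib was 71.7 times HSC with an exact 95% interval of 12.6 to 2858, from 105 reads against 1, where the interval covers counting error only. Col2a1 (NM_031163, chr15:97975602-98004724), the cartilage collagen, had 0 reads in all HSC and CCl4-fib libraries, which allows up to 0.282 and 0.193 RPM (scaled as RPKM, without the length), and 5 reads in NASH-fib replicate 3 alone. Col11a2 had at most 3 reads in any library.

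Col24a1 (NM_027770, chr3:145292472-145552005), of the small branch of the family, was at 77.2, 94.7 and 152 in HSC, at 164, 490 and 779 in CCl4-fib and at 4.08, 8.02 and 0 in NASH-fib. All CCl4-fib libraries were above all HSC libraries, and all NASH-fib libraries were below both. Its log2 difference between CCl4-fib and HSC was 1.93 (SE 0.83; adjusted p = 0.107, limma) and did not pass the test. Col27a1 (NM_025685, chr4:63215412-63334990), the other chain of this branch, was at 165, 253 and 149 in HSC, at 114, 198 and 135 in CCl4-fib and at 257, 177 and 107 in NASH-fib. Its libraries overlapped in all 3 groups, and its log2 difference between CCl4-fib and HSC was -0.34, with a 95% interval of -1.29 to 0.61 (adjusted p = 0.579, limma).

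In NASH-fib against HSC, the family split: 4 genes rose, 2 fell and 3 did not pass the test. Over all tested genes 12.5% were called, 8.23% as higher and 4.3% as lower, and the median log2 fold change was 0.99 for the 9 genes and -0.02 over all genes. The libraries lay fully above HSC for 5 of the 9 genes and fully below for 2, against 12.7% and 11.6% of all genes and 24.4% in either direction. The comparison used the same HSC libraries as the one above. Col1a1 rose by 2.75 (SE 0.35; adjusted p = 0.000481, limma), Col5a2 by 2.20 (SE 0.33; adjusted p = 0.00138, limma) and Col1a2 by 1.98 (SE 0.38; adjusted p = 0.00607, limma). Col11a1 rose by 4.50 (SE 0.77; adjusted p = 0.00296, limma), and its ratio of scaled reads to HSC was 71.1 with an exact 95% interval of 12.4 to 2842, from 86 reads against 1.

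The 2 genes that fell in NASH-fib were Col5a1 and Col24a1. Col5a1 fell by 1.32 on the log2 scale (SE 0.33; adjusted p = 0.0239, limma), and its 3 NASH-fib values were all below the lowest HSC value of 326. The fall lost its call in 7 of 21 alternative settings, with log2 values of -1.41 to -1.25 over all of them, among them the fit of these 2 groups alone (adjusted p = 0.0588, limma). Col24a1 fell by 4.87 (SE 0.83; adjusted p = 0.00277, limma), with 258 reads in HSC and 12 in NASH-fib. The ratio of scaled Col24a1 reads of HSC to NASH-fib was 26.0, with an exact 95% interval of 14.6 to 51.0 for counting error only.

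Col3a1 was higher in every NASH-fib library than in every HSC library, with a log2 difference of 0.99 (SE 0.37; adjusted p = 0.131, limma) that did not pass the test. For Col5a3 the difference was -0.05, with a 95% interval of -1.24 to 1.14 (adjusted p = 0.982, limma), and for Col27a1 it was -0.12, with an interval of -1.07 to 0.83 (adjusted p = 0.941, limma). With the number that begins each label as a block, 1 gene, Col1a1, was called in this comparison, where 4.89% of all genes were called. HSC replicate 1 is alone with its number and adds nothing to that fit. The fold changes of the lost genes moved little except for Col11a1: Col1a2 was at 2.02, Col5a2 at 2.06, Col5a1 at -1.41, Col24a1 at -5.08 and Col11a1 at 3.46.

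**Figure D3:**
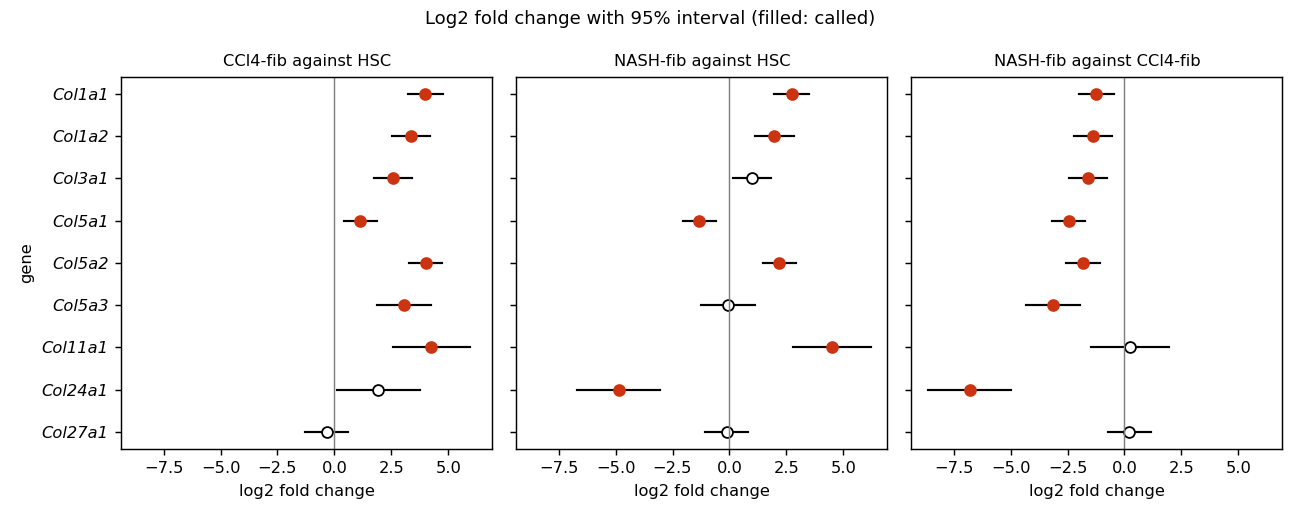
Log2 fold change with 95% interval (limma) of the 9 tested fibrillar collagen genes in the 3 comparisons, with filled points for genes that were called. The points lie to the right in CCl4-fib against HSC except for Col27a1, on both sides in NASH-fib against HSC, and to the left in NASH-fib against CCl4-fib except for Col11a1 and Col27a1.

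Between the fibroblast groups, 7 of the 9 tested genes were lower in NASH-fib than in CCl4-fib and none was higher. These were Col1a1, Col1a2, Col3a1, Col5a1, Col5a2, Col5a3 and Col24a1, and for each of them every NASH-fib library was below every CCl4-fib library. Over all tested genes, 10.6% were called, 4.97% as higher and 5.66% as lower, and the libraries of the groups did not overlap in 39.1% of genes, with NASH-fib above in 17.1% and below in 22.0%. Of all calls in this comparison 46.7% were higher, against 58.8% with TMM scaling in edgeR and 56.7% in DESeq2, while no fibrillar collagen was called as higher under either. The median of the 9 genes was -1.60, against -0.11 over all genes.

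Among these 7 genes the bulk chains had the smallest differences, given here on the log2 scale as NASH-fib minus CCl4-fib. Col1a1 differed by -1.25 (SE 0.35; adjusted p = 0.0462, limma), Col1a2 by -1.39 (SE 0.38; adjusted p = 0.0445, limma) and Col3a1 by -1.60 (SE 0.37; adjusted p = 0.0261, limma). These 3 calls are near the threshold: with edgeR the count of genes called was 4 in place of 7, and the type I and III chains were the ones lost. Col5a2 differed by -1.82 (adjusted p = 0.0131, limma), Col5a1 by -2.45 (adjusted p = 0.00618, limma) and Col5a3 by -3.13 (adjusted p = 0.0114, limma). Leaving out CCl4-fib replicate 2 gave 2 calls, Col5a1 and Col24a1, and leaving out NASH-fib replicate 3 gave 3. The share of all genes called fell from 10.6% to 1.52% and 1.92% in these fits. Leaving out NASH-fib replicate 2, or either of replicates 1 and 3 of CCl4-fib, gave 4, where 12.9%, 3.8% and 4.95% of all genes were called.

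Col24a1 showed the greatest difference of the family between the fibroblast groups, at -6.80 (SE 0.83; adjusted p = 0.00477, limma). The CCl4-fib libraries held 206, 576 and 817 reads of this gene, and the NASH-fib libraries 3, 9 and 0. The ratio of scaled reads of CCl4-fib to NASH-fib was 110, with an exact 95% interval of 62.8 to 213 for counting error only. The CCl4-fib libraries themselves differed, with replicate 1 at 164 and replicate 3 at 779. Col5a1 and Col24a1 kept this call in all 21 alternative settings run, with log2 differences from -2.70 to -2.25 and from -7.46 to -4.91.

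For Col11a1 the log2 difference between NASH-fib and CCl4-fib was 0.24, with a 95% interval of -1.47 to 1.94 (adjusted p = 0.859, limma). For Col27a1 it was 0.22, with an interval of -0.73 to 1.17 (adjusted p = 0.756, limma). The libraries of both genes overlapped between the groups. Libraries of called genes did not overlap, which fixes the sign of their difference within libraries whose labels begin with the same number, but not its size. Col1a1 differed by -0.84 between NASH-fib and CCl4-fib for one such number and by -1.47 for the other, Col5a1 by -1.92 and -2.88, and Col24a1 by -5.02 and -8.02. Col11a1, which was not called, was at 0.88 and -1.30.

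The α1 and α2 chains of type I collagen are joined in a fixed proportion in the protein, and the ratio of their mRNAs per length was compared within libraries. The Col1a1 to Col1a2 ratio was 0.402, 0.406 and 0.421 in HSC, 0.589, 0.613 and 0.706 in CCl4-fib, then 0.551, 0.740 and 0.838 in NASH-fib. The HSC libraries lay within a narrow band below all fibroblast libraries, with means of 0.410 ± 0.0097 (SD, n = 3) in HSC, 0.636 ± 0.0618 in CCl4-fib and 0.710 ± 0.146 in NASH-fib. On the log2 scale the ratio was higher by 0.63 in CCl4-fib and by 0.77 in NASH-fib than in HSC, each with an exact two-sided permutation p = 0.1, the smallest that 3 against 3 libraries allow, and 0.15 after adjustment over the 3 comparisons. The fibroblast groups overlapped, with a difference of 0.14 (exact permutation p = 0.6). After correction for the limit on reads per position, the mean of CCl4-fib was 0.600.

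A pair of other ratios, chosen after their values had been seen, differed more between HSCs and fibroblasts. The Col5a1 to Col5a2 ratio, of the chains joined in type V collagen, was 1.74, 1.01 and 1.46 in HSC, 0.159, 0.182 and 0.220 in CCl4-fib, then 0.101, 0.122 and 0.135 in NASH-fib. HSCs thus held at least as much Col5a1 as Col5a2 mRNA per length, whereas every fibroblast library held far more Col5a2. The Col3a1 to Col1a1 ratio was 3.90, 3.65 and 4.17 in HSC, 1.80, 1.55 and 1.14 in CCl4-fib, then 1.55, 1.02 and 0.971 in NASH-fib. It was lower in all fibroblast libraries than in all HSC libraries and overlapped between the fibroblast groups.

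**Figure D4:**
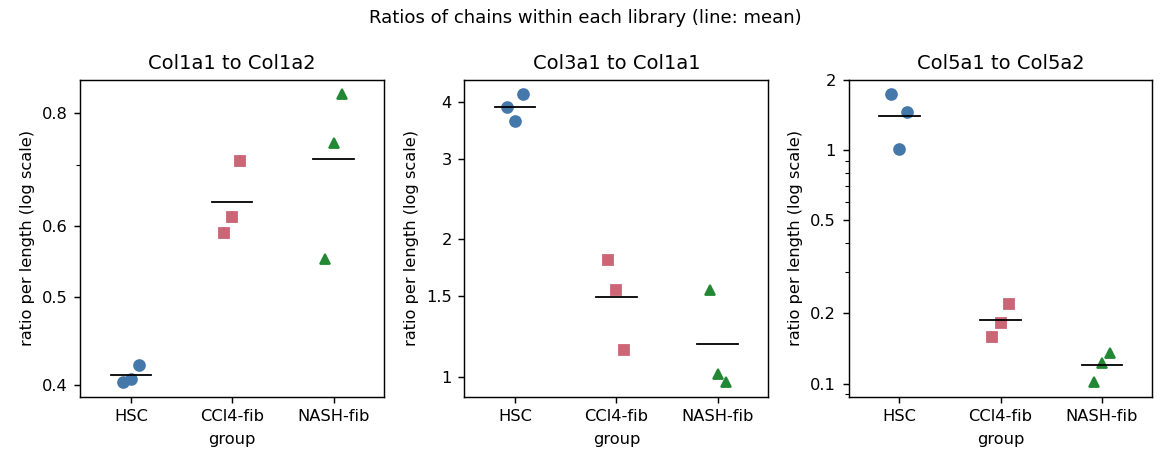
Ratios per length of Col1a1 to Col1a2, Col3a1 to Col1a1 and Col5a1 to Col5a2 (log scale) in each library, with a line at the group mean. The Col1a1 to Col1a2 ratio is near 0.410 in HSC and above 0.55 in all fibroblast libraries, and the Col5a1 to Col5a2 ratio is above 1 in HSC and at most 0.220 in the fibroblasts.

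Over the 9 libraries, the log2 levels of the bulk chains went together. Pearson's r was 0.99 between Col1a1 and Col1a2, 0.99 between Col1a2 and Col5a2 and 0.97 between Col1a2 and Col3a1, whereas between Col1a1 and Col24a1 it was 0.08 and between Col1a1 and Col27a1 -0.18. These are descriptions over 9 libraries in 3 groups, where a difference between groups alone gives a high r. Of all tested genes, those most like Col1a1 were Wt1 (r = 0.992), a transcription factor of mesothelium, and Ptgfrn (r = 0.990), those most like Col1a2 were Sfrp2 (r = 0.997) and Col5a2 (r = 0.990), and those most like Col3a1 were Loxl1 (r = 0.975) and Rhbdl3 (r = 0.974). Col5a2 was nearest to Steap1 (r = 0.996) and Prickle3 (r = 0.995), Col5a1 to Rbmxl1 (r = 0.960) and Ccl2 (r = 0.957), and Col5a3 to Dpysl5 (r = 0.983) and Serpinb2 (r = 0.981). Col11a1 was nearest to Tmsb15l (r = 0.978) and Bend6 (r = 0.974), Col24a1 to Abhd12 (r = 0.969) and Wipi1 (r = 0.963), and Col27a1 to Tmtc3 (r = 0.960) and Dnajb9 (r = 0.955).

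The genes that make fibrils from collagen chains were read in the same fit, as lists by role. The counts below stand against the shares of all tested genes that were called, which were 16.2% higher and 11.7% lower in CCl4-fib against HSC, 8.23% and 4.3% in NASH-fib against HSC, and 4.97% and 5.66% in NASH-fib against CCl4-fib. Of 19 enzymes and chaperones that fold and modify collagen chains, 8 rose and none fell in CCl4-fib against HSC (Fkbp10, P3h1, P3h4, P4ha3, P4hb, Plod2, Ppib, Serpinh1), with a list median of 1.51 against 0.18 over all genes. In NASH-fib against HSC 1 of the 19 rose, a share no greater than the 8.23% of all genes, and this was Plod2, a lysyl hydroxylase, by 1.61 (SE 0.45; adjusted p = 0.0401, limma). Fkbp10, a prolyl isomerase and chaperone of the endoplasmic reticulum, was at 46.1 ± 23.6 (SD, n = 3) in HSC, 755 ± 168 in CCl4-fib and 71.8 ± 29.4 in NASH-fib, a rise of 4.15 in CCl4-fib (adjusted p = 0.000333, limma) and a difference of -3.45 between NASH-fib and CCl4-fib (adjusted p = 0.00863, limma). Between the fibroblast groups 5 of the 19 were lower in NASH-fib and none was higher (Fkbp10, P3h1, P4hb, Ppib, Serpinh1).

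Among proteinases and enhancers that trim procollagen ends, 7 of 10 could be tested. In CCl4-fib, 4 of the 7 rose (Adamts2, Bmp1, Pcolce, Tll1), where 16.2% of all genes did. Bmp1, which removes the C-terminal end, was at 84.6 ± 29.2 in HSC, 1158 ± 335 in CCl4-fib and 148 ± 64.5 in NASH-fib (SD, n = 3). In NASH-fib against HSC 1 of the 7 rose, where 8.23% of all genes did, and this was Pcolce2, by 3.23 (SE 0.74; adjusted p = 0.0145, limma). Lower in NASH-fib than in CCl4-fib were 3, with Adamts14 at -4.59 (SE 1.12; adjusted p = 0.0297, limma). Adamts14 was at 76.3 ± 23.4 in CCl4-fib and 5.08 ± 7.96 in NASH-fib (SD, n = 3), where it rests on few reads. Of the 5 lysyl oxidases, which cross-link fibrils, Lox and Loxl1 rose and Loxl4 fell in both fibroblast groups against the same HSC libraries. Lox was at 15.7 ± 23.1 in HSC, 867 ± 247 in CCl4-fib and 427 ± 166 in NASH-fib (SD, n = 3), and Loxl1 was lower in NASH-fib than in CCl4-fib, with a log2 difference of -2.87 (SE 0.38; adjusted p = 0.00567, limma).

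Of 9 collagens that sit on the surface of fibrils, 4 could be tested, and Col12a1, Col16a1 and Col19a1 rose while Col14a1 fell in CCl4-fib. Col12a1 was at 1.28 ± 0.160 in HSC, 488 ± 22.2 in CCl4-fib and 209 ± 82.9 in NASH-fib (SD, n = 3), and rose in both fibroblast groups (adjusted p = 6.23e-06 and 1.67e-05, limma). Among 24 collagens of other kinds (networks, beaded filaments, membrane and multiplexin collagens), 19 were tested, of which 13 rose and 1 fell in CCl4-fib, 11 rose in NASH-fib, and 1 was higher and 4 lower in NASH-fib than in CCl4-fib. The corresponding shares of all genes were 16.2% and 11.7%, 8.23%, and 4.97% and 5.66%. The beaded-filament chain Col6a5 rose most in both groups, by 8.51 and 6.07 (adjusted p = 6.23e-06 and 3.53e-05, limma), and Col13a1 fell by 3.61 in CCl4-fib (adjusted p = 0.0198, limma). Between the fibroblast groups, the basement membrane chain Col4a3 was higher in NASH-fib by 2.20 (adjusted p = 0.0257, limma) and Col7a1 was lower, at -3.39 (adjusted p = 0.0234, limma). Col7a1 rests on few reads, with values of 0 in HSC, 14.1 ± 4.25 in CCl4-fib and 0.593 ± 1.03 in NASH-fib (SD, n = 3).

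Of 9 receptors and uptake genes for collagen, 4 rose and 2 fell in CCl4-fib, 3 rose and 1 fell in NASH-fib, and 2 were higher and 2 lower in NASH-fib than in CCl4-fib. Of all genes, 16.2% rose and 11.7% fell in CCl4-fib, and 8.23% rose and 4.3% fell in NASH-fib, which also holds as the background of the transcription factors below. Itga11, the α11 integrin chain that binds fibrillar collagen, was at 0.487 ± 0.843 in HSC, 57.1 ± 35.2 in CCl4-fib and 67.9 ± 41.6 in NASH-fib (SD, n = 3), and rose in both fibroblast groups (adjusted p = 0.000593 and 0.000796, limma). Itga1 fell in both fibroblast groups against HSC, at -2.85 in CCl4-fib (adjusted p = 0.000371, limma) and -1.58 in NASH-fib (adjusted p = 0.0177, limma). Ddr1 rose in both, by 3.75 in CCl4-fib (adjusted p = 0.000115, limma) and 1.82 in NASH-fib (adjusted p = 0.0126, limma). It was lower in NASH-fib than in CCl4-fib, at -1.93 (adjusted p = 0.0188, limma). The leukocyte receptor Lair1 fell by 4.84 in CCl4-fib (adjusted p = 0.00532, limma) and was higher in NASH-fib than in CCl4-fib by 4.08 (adjusted p = 0.0314, limma). Among 10 transcription factors known to act on fibrillar collagen genes, 7 were tested: Creb3l1, Sox6 and Sox9 rose in CCl4-fib and Sox6 and Sox9 in NASH-fib, with Creb3l1 at 3.72 in CCl4-fib (adjusted p = 0.0347, limma) and Sox9 at 3.78 in NASH-fib (adjusted p = 0.00138, limma). Sox6 was higher in NASH-fib than in CCl4-fib, by 1.32 (SE 0.33; adjusted p = 0.0336, limma).

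**Figure D5:**
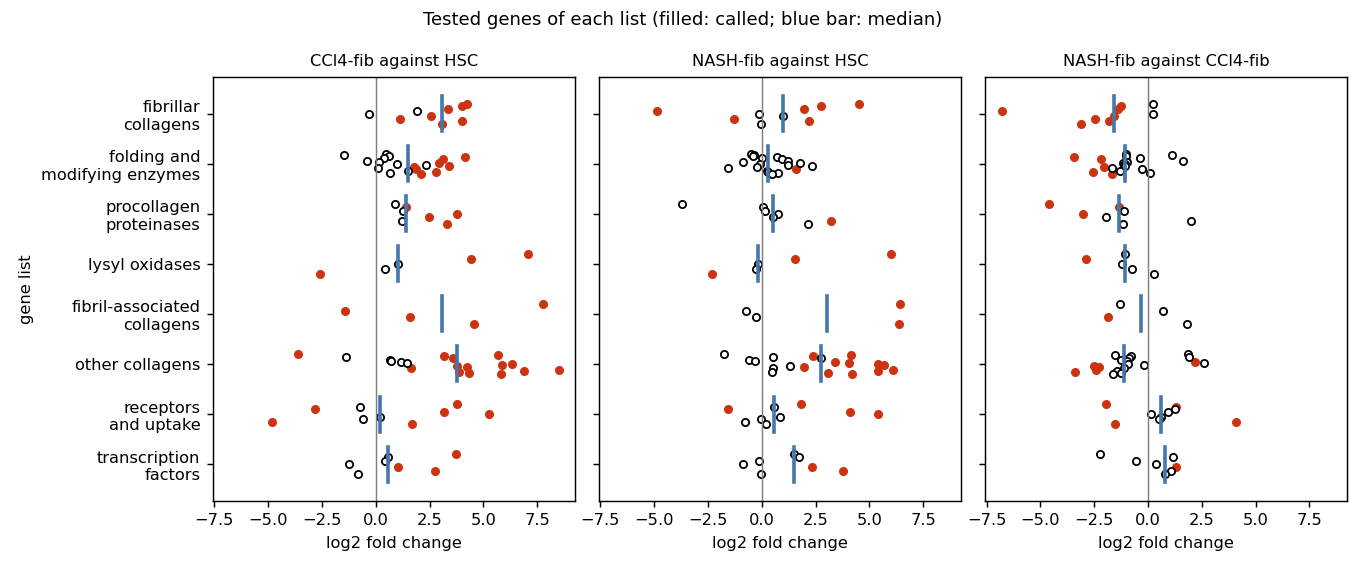
Log2 fold change (limma) of every tested gene of the fibrillar collagens and of 7 lists of related genes in the 3 comparisons, with filled points for called genes and a blue bar at the median of each list. The median of the fibrillar collagens is 3.07 in CCl4-fib against HSC, 0.99 in NASH-fib against HSC and -1.60 in NASH-fib against CCl4-fib.

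Markers of other cell types moved with the groups, and their part in the results above was not tested. The summed values of 10 hepatocyte genes ran from 22640 to 37460 in HSC, from 2489 to 4303 in CCl4-fib and from 7309 to 28560 in NASH-fib, and those of 7 sinusoidal endothelial genes from 6494 to 13900, from 221 to 259 and from 1071 to 3565. Of 7 portal fibroblast genes the sum was 141 to 188 in HSC, 4763 to 7358 in CCl4-fib and 2295 to 5835 in NASH-fib, and of 7 smooth muscle genes 102 to 379, 3145 to 14310 and 5212 to 21700. The largest part of the portal sum was Cd34, at 2811 to 3219 in CCl4-fib and 1384 to 3644 in NASH-fib. Eln and Entpd2 were lower in every NASH-fib library than in every CCl4-fib library, and the other portal genes overlapped. Myh11 was the largest part of the smooth muscle sum, at 1610 to 9805 and 2410 to 13649. The 8 activated fibroblast genes summed to 5462 to 8089 in HSC, 23730 to 30580 in CCl4-fib and 22790 to 26410 in NASH-fib. Of these, Acta2, Tagln, Timp1, Lox and Spp1 were higher in every fibroblast library than in every HSC library. Postn went the other way, at 2971 to 5577 in HSC, 1435 to 2159 in CCl4-fib and 908 to 2353 in NASH-fib. Fn1 was at 1156 to 1637, 5970 to 8694 and 1357 to 1575, and Thbs2 at 531 to 790, 734 to 1106 and 524 to 745, in the same order.

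In the remaining lists, too, a few genes set the sum and single genes went different ways. The 10 quiescent stellate cell genes summed to 73840 to 86340 in HSC, 19600 to 30660 in CCl4-fib and 30610 to 49610 in NASH-fib. Most of what was left in the fibroblasts was Rgs5 and Dcn, whereas Reln was at 7670 to 11068 in HSC, 75.4 to 166 in CCl4-fib and 200.5 to 377 in NASH-fib, and Hhip at 1840 to 2276 in HSC and at most 38.3 in the fibroblasts. The 5 mesothelial genes summed to 594 to 945 in HSC, 15520 to 21730 in CCl4-fib and 24620 to 31160 in NASH-fib. Of these, Gpm6a was at 6053 to 7605 in CCl4-fib and 11014 to 21261 in NASH-fib, while Wt1 was at 860 to 1649 and 379 to 466 and Upk3b at 1196 to 3916 and 141 to 965.

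The 6 cholangiocyte genes summed to 72.5 to 226 in HSC, 3488 to 4778 in CCl4-fib and 6087 to 11850 in NASH-fib, of which Spp1, also a gene of the activated fibroblast list, was 938 to 2421 in CCl4-fib and 4847 to 10729 in NASH-fib. The epithelial keratin Krt19 was instead at 771 to 2699 in CCl4-fib and 53.0 to 469 in NASH-fib, and Krt7 overlapped between these groups. Every NASH-fib library was above every CCl4-fib library for Epcam, Cftr and Sox9, the last also among the transcription factors above. Epcam was at 20.6 to 66.6 in NASH-fib and at most 7.94 in CCl4-fib, and Cftr at 125 to 250 and at most 28.1. Sox9 was at 254 to 578 in NASH-fib and 114 to 237 in CCl4-fib. The 7 macrophage and leukocyte genes summed to 2969 to 18940 in HSC, 5577 to 6279 in CCl4-fib and 4116 to 11070 in NASH-fib, and in CCl4-fib this was mostly Cd74, at 4876 to 5591. Without Cd74 the picture differed, with Clec4f at 593 to 4480 in HSC and at most 26.4 in CCl4-fib, and Ptprc (CD45) at 88.8 to 315 in HSC, 8.73 to 25.5 in CCl4-fib and 62.3 to 319 in NASH-fib. Of 7 cartilage and bone genes, all had at most 3 reads per library in HSC, and the sum ran from 8.58 to 90.5 in CCl4-fib and from 366 to 1268 in NASH-fib. The NASH-fib sum was nearly all from the bone genes Ibsp, at 285 to 344, and Bglap, at 59.8 to 907, while the cartilage gene Acan was at most 81.0 in CCl4-fib and 12.5 in NASH-fib, and Matn1 had no reads in any library.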

How the data were processed

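Reads had been aligned by the authors to the mm10 genome with STAR and counted per RefSeq gene with HOMER over exons, on both strands, with at most 3 reads per position, per the file headers, and the deposited values are a signal: read counts multiplied by 1 factor per library, by HOMER's getDiffExpression with its DESeq2 option, so that all libraries have the same total. The header commands name 10 libraries, of which 9 are columns, and no column of values was left unused. Whole reads were recovered from the step of each library for 100% of values within 0.1 read. The members and lists were chosen with earlier results of these data known. Log2 of the value plus 1 was fitted with limma 3.58.1 (R 4.3.3) in 1 model of the 9 libraries, after edgeR's filterByExpr with a minimum count of 10 (13651 genes), with a variance trend and Benjamini-Hochberg adjustment. As alternatives, the recovered reads were tested with edgeR 4.0.16 (quasi-likelihood, TMM) and DESeq2 1.42.0, beside other pseudocounts, scalings, filters, blocks and left-out libraries. A fold change is on the log2(value + 1) scale and understates the change of low genes. The labels do not say whether the pools come from separate experiments, although each begins with a number that reads like a date (4 in all), so that p-values measure the spread between these pooled libraries. Ratios within libraries were tested by exact two-sided permutation. Libraries of different groups with the same replicate number had deviations from their group means that correlated at -0.473 to 0.514, and they were not paired. For those whose labels begin with the same number, r was -0.171 to 0.645, the highest for HSC replicate 2 with NASH-fib replicate 1. Genes were named by rule: all members, the called gene with the greatest fold change in each direction for each list and comparison with non-overlapping libraries, the 2 genes most correlated with each tested member, Col11a2, and Acta2, Lrat and Alb. Further genes of the marker lists were named outside this rule, after their values had been seen. The limma fit, and no other step, was tested on simulated counts, for the comparisons with HSC.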

Additional observations from a re-analysis of the deposited data

Results flagged for a closer look

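For 3 genes the estimated change against HSC had opposite signs in the fibroblast groups and the difference between those groups passed the test. Of these, Col5a1 alone had both changes against HSC called. Col5a1 was at 1.13 in CCl4-fib and -1.32 in NASH-fib, with a difference of -2.45 (NASH-fib minus CCl4-fib). Col24a1 was at 1.93 and -4.87, with a difference of -6.80, although its change in CCl4-fib did not itself pass the test (adjusted p = 0.107, limma). Col5a3 was at 3.07 and -0.05, with a difference of -3.13, and its HSC and NASH-fib libraries overlapped. The -0.05 has a 95% interval of -1.24 to 1.14 and changed sign in 3 of 21 settings, so that its sign is not settled. All values are log2 fold changes, and the comparisons share the same libraries.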

How the results depend on the processing

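The counts, fold changes and ratios of the fibrillar collagens and the calls of the related lists were recomputed under 21 alternative settings. With the number that begins each label as a block, 6 genes were called in CCl4-fib against HSC, 1 in NASH-fib against HSC and 4 in NASH-fib against CCl4-fib (Col24a1, Col5a1, Col5a2, Col5a3). Of all genes, 18.1%, 4.89% and 4.34% were called with this block, against 27.8%, 12.5% and 10.6% in the main fit. With edgeR 4 fibrillar collagens were called in NASH-fib against CCl4-fib, where 10.0% of all genes were. Leaving out 1 library gave 6 to 8 genes in CCl4-fib against HSC, 5 to 6 in NASH-fib against HSC and 2 to 7 in NASH-fib against CCl4-fib. The share of all genes called in these fits ran from 17.5% to 34.5%, from 8.88% to 14.1% and from 1.52% to 12.9%. The replicate numbers do not pair the libraries, and a replicate block gave 6, 5 and 5, where 24.3%, 10.9% and 6.81% of all genes were called. Without HSC replicate 2 and NASH-fib replicate 1, a choice made after the data had been seen, the counts were 7, 6 and 7. Of all genes, 31.8%, 14.6% and 12.6% were called there. The median log2 fold change of all genes moved from -0.11 to 0.14 with TMM in NASH-fib against CCl4-fib, and from 0.18 to 0.00 in CCl4-fib against HSC.

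Single calls were lost in NASH-fib against CCl4-fib for Col1a1 and Col1a2 in 12 of 21 settings each and for Col3a1 in 7, and for Col5a1 in 7 in each comparison with HSC. Col24a1 passed the test in CCl4-fib against HSC in 4 settings, among them DESeq2. Some of the differences that were not called changed sign. In NASH-fib against HSC, Col5a3 was at 0.10 with the block on label numbers and at -0.526 to 0.404 with 1 library left out, and Col27a1 was at 0.118 with that block, 0.013 with edgeR, 0.018 with DESeq2 and -0.415 to 0.212 with 1 library left out. In NASH-fib against CCl4-fib, Col11a1 was at -0.30 with that block and -0.365 to 0.847 with 1 library left out, and Col27a1 at -0.076 to 0.551. Without both libraries named above, Col11a1 was at -0.079 and Col27a1 at -0.076. The Col1a1 to Col1a2 ratio not divided by length was 0.473 in HSC and 0.735 in CCl4-fib, and leaving out 1 library gave 0.404 to 0.413 in HSC, 0.601 to 0.660 in CCl4-fib and 0.646 to 0.789 in NASH-fib. The causes were not tested. Col11a1 and, in NASH-fib, Col24a1 rest on few reads.

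Of the related lists, the folding enzymes higher in CCl4-fib than in HSC numbered 5 to 11 over the settings (8 as given), the proteinases 1 to 5 (4), the other collagens 11 to 14 (13) and the receptors 4 in each. The folding enzymes lower in NASH-fib than in CCl4-fib numbered 1 to 7 (5). Of the calls named, Plod2 in NASH-fib against HSC held in 10 of 21 settings, Loxl4 there in 12, and Sox6 and Lair1 in NASH-fib against CCl4-fib in 12 and 13. In the latter comparison Adamts14 held in 14 of 21, with log2 differences of -5.739 to -2.605. Col7a1 held there in 13 of the 19 settings that gave a value for it, at -4.303 to -1.177.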

Other observations

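The Col5a2 to Col1a1 ratio per length, chosen after its values had been seen, was nearly the same in the 3 CCl4-fib libraries, at 0.295, 0.296 and 0.296. The SD of 0.000393 over these libraries was below the counting error of each single ratio, which was 0.00522 to 0.00574 as a standard error. After correction for the limit on reads per position, the ratios were 0.290, 0.287 and 0.289, with an SD of 0.00164. This closeness was the greatest among the ratios looked at and was not tested. In HSC the ratio was 0.266, 0.264 and 0.349, and in NASH-fib 0.218, 0.195 and 0.185, below every library of the other groups. Relative to Col5a1, Col11a1 stood higher in NASH-fib than in CCl4-fib, in a ratio also chosen after the data had been seen. Their ratio per length was 0.361, 0.129 and 0.283 in NASH-fib and 0.051, 0.014 and 0.065 in CCl4-fib, although Col11a1 alone overlapped between these groups. The ratio also holds the lower Col5a1 of NASH-fib, with a log2 difference of -2.45, and rests on 12 to 62 reads of Col11a1 per fibroblast library.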
